A study of Mus musculus with 4 samples.

Results

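The cells described here were the deeply sequenced serous acinar cells of the mouse submandibular gland (SMG) and sublingual gland (SLG) in which *Mucl2* was the main transcript. They were chosen from the counts by 3 limits: at least 10000 UMIs, *Mucl2* making up at least 30% of the UMIs, and *Dcpp1*, *Dcpp2* and *Dcpp3* together under 5% of the UMIs. A UMI (unique molecular identifier) is a tag that marks 1 captured RNA molecule. Of 15707 cell barcodes in the matrix, 1942 met the limits, or 12.4% (exact binomial 95% interval 11.9 to 12.9), and they held 68511491 of the 125100595 UMIs, or 54.8%. They are called *Mucl2*-rich cells below.

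Both glands were taken from untreated wild-type female C57BL/6N mice of 6 to 8 weeks, and the tissue was dissociated with enzymes before the 10x Genomics 3' libraries were made. The series lists 4 samples of 1 group, but all barcodes in the matrix carried 1 suffix and no sequence occurred more than once, so the cells could not be divided by sample, mouse or gland. All values are therefore of 1 pooled sample. There was no replicate, no test was run, and each 95% interval covers counting error only.

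Serous acinar cells make the watery, protein-rich part of saliva. Secretory proteins enter the endoplasmic reticulum (ER) as they are made, are folded and glycosylated there, pass through the Golgi, and are stored in granules until nerves release them by adrenergic and muscarinic signals. Chloride transport across the same cells draws sodium and water into the lumen, and the water passes through aquaporins.

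*Mucl2* codes for a mucin-like secreted protein and lies at chr15:103895855-103899312 on the minus strand of GRCm38. Because it was the largest transcript of these cells, the 250 bases before its RefSeq start (GRCm38.p6, chr15:103899313-103899562, minus strand) are shown first, beside those of *Pip* (chr6:41847299-41847548, plus strand), a prolactin-induced secreted protein that is also among their 10 largest transcripts. The sequences run 5′ to 3′ along the gene, and capitals mark matches of TATAAA, a common core promoter motif, on either strand. Matches of the CCAAT box, searched in the same way, are also in capitals.
Mucl2: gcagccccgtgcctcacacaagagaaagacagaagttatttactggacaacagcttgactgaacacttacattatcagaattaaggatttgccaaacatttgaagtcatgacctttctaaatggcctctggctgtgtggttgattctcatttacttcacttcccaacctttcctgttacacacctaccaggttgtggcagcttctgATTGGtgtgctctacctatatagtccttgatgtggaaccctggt
Pip: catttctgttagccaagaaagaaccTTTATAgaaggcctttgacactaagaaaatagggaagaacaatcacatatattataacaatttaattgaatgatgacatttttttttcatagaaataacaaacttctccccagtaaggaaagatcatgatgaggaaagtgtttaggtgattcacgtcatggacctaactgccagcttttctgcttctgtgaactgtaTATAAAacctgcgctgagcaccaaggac

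The *Pip* stretch held TATAAA beginning 28 bases before the start and a reverse match beginning 225 bases before it. The *Mucl2* stretch held no TATAAA and 1 reverse CCAAT beginning 44 bases before the start. Only exact matches were searched, so the similar letters tatata near the end of the *Mucl2* stretch are not marked. Of all 32851 RefSeq promoters searched over the same length, 12.4% held TATAAA and 33.9% held CCAAT on either strand. The E-box CAGCTG, also searched, was in 13.0% of them and is not marked.

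Depth and *Mucl2* share were spread widely among the members. Total UMIs ran from 10001 through a median of 33692 to 141509, genes per cell had a median of 1404.5, and mitochondrial UMIs a median of 0.813%. The *Mucl2* share, on which the choice rested, ran from 30.8% through a median of 59.0% to 82.6%. The 3 *Dcpp* genes had a median share of 0.152%.

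**Figure D1:**
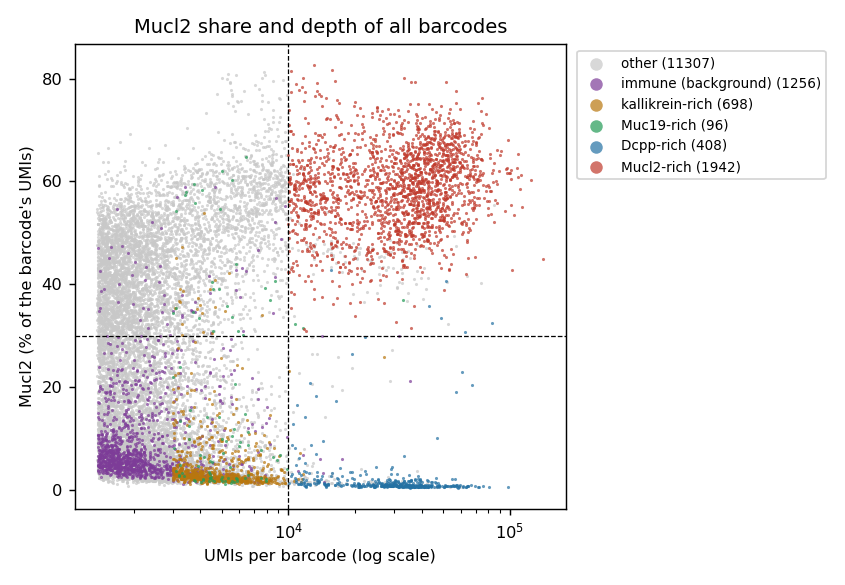
Each point is 1 of the 15707 barcodes, with its total UMIs on a log scale on the horizontal axis and its *Mucl2* share (% of UMIs) on the vertical axis. Colours mark the 1942 *Mucl2*-rich cells, the 408 *Dcpp*-rich, 96 *Muc19*-rich and 698 kallikrein-rich cells, the 1256 immune cells used as background, and all others. Dashed lines mark the limits of 10000 UMIs and 30%, and the cloud of *Mucl2*-rich barcodes goes on below the depth limit.

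The depth limit left many cells with a similar *Mucl2* share outside. The 140 members with 10000 to 12000 UMIs had a median *Mucl2* share of 58.1%, and the 233 cells with 8000 to 10000 UMIs that met the other limits had one of 58.1%. *Aqp5* was at 18.5 and 14.3 UMIs per 10000 outside the 10 largest transcripts in these sets, and *Bhlha15* at 3.34 and 2.71. In all, 3394 cells under 10000 UMIs met the other limits, at a median of 2504 UMIs and of 48.9% *Mucl2*. In those *Aqp5* was at 9.02, *Bhlha15* at 1.57 and *Lpo* at 5.46, below the 18.5, 3.34 and 8.76 of the members just inside the limit. At the other edges, 20 members had a *Mucl2* share of 30 to 40% and 11 cells lay at 20 to 30%, with medians of 2061 and 2707 genes. For the *Dcpp* limit, 17 members lay at 2 to 5% and 45 cells at 5 to 10%.

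The label serous acinar was set beside 5 markers, *Mucl2*, *Lpo* (lactoperoxidase, a secreted antimicrobial enzyme), *Prol1* (a proline-rich secreted protein), *Aqp5* (the water channel of acinar cells) and *Bhlha15* (Mist1, a transcription factor of secretory cells). *Mucl2* was part of the rule that chose the cells, so it is no check of the label. *Aqp5* was detected in 97.0% of members (96.2 to 97.7) against 7.25% (5.87 to 8.82) of 1256 immune cells, which should lack it. *Lpo* was detected in 88.4% against 5.81%, and *Bhlha15* in 60.5% against 2.07%. Median depths were 33692 and 1990 UMIs. With every cell thinned to 1000 UMIs the shares were 18.7% against 3.11% for *Aqp5*, 11.5% against 2.47% for *Lpo* and 2.94% against 0.478% for *Bhlha15*. *Prol1* was detected in all members but also in 94.4% of the immune cells, so its detection alone says little. These 3 markers lay above the immune background at equal depth, which speaks for acinar cells but not for serous against mucous ones. In the *Muc19*-rich cells described below the thinned shares were 61.5% for *Aqp5*, 4.17% (1.15 to 10.3) for *Bhlha15* and 3.12% for *Lpo*. Of the 3 only *Lpo* was at a higher share in the members. The 10 largest transcripts of the matrix took 90.2% of the members' UMIs but 38.8% of those of *Muc19*-rich cells. Thinning thus left fewer UMIs of other genes in the members, so these shares do not compare the levels of other genes. Outside the largest transcripts *Bhlha15* was higher in the members, as given below.

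Per member, *Aqp5* ran from 0 through a median of 6 to 38 UMIs, and 58 members had none. *Lpo* ran from 0 through 3 to 49 UMIs, with 226 members at 0. *Bhlha15* ran from 0 through 1 to 8 UMIs, with 768 members at 0. A cell at 0 for a transcript of this level cannot be told from a cell in which it was missed.

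A few secreted products made up most of the RNA. *Mucl2* took 59.4% of all members' UMIs, the secretoglobin *Scgb1b27* 14.9%, the secretoglobins *Scgb2b26* and *Scgb2b27* together 10.3%, and *Pip*, *Prol1* and *Car6* (a secreted carbonic anhydrase) together 5.37%. The 10 largest transcripts of the whole matrix took 90.2% of their UMIs (90.205 to 90.219), and mitochondrial genes 0.882%. The remaining genes, without the kallikreins and *Muc19*, shared 8.84%. All transcripts outside the 10 largest, mitochondrial ones included, had a median of 3327 UMIs per cell.

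**Figure D2:**
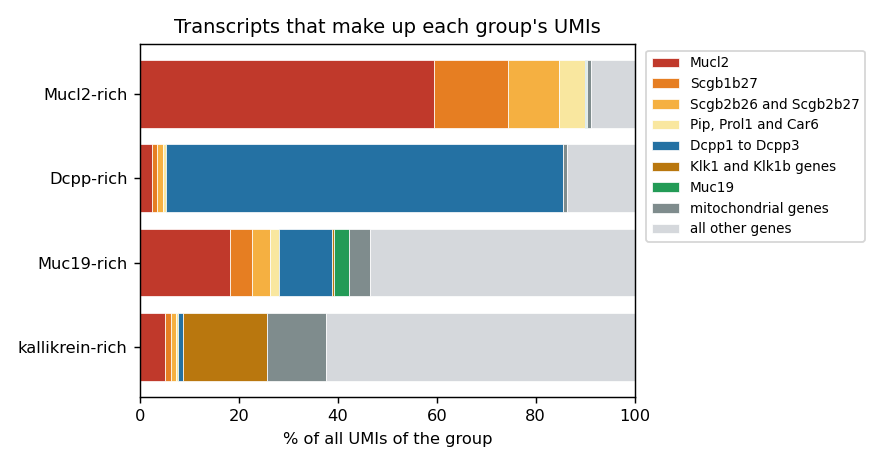
Stacked bars give the share of all UMIs of a group (%, horizontal axis) that each transcript or set of transcripts takes, for the 4 groups of cells. *Mucl2* takes 59.4% in the *Mucl2*-rich cells and *Dcpp1* to *Dcpp3* take 80.3% in the *Dcpp*-rich cells, while other genes take 8.84% and 13.7%.

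Single products varied in opposite senses within these limits. Across 1870 members the *Mucl2* share had a Pearson correlation of -0.74 with that of *Scgb2b27* and of -0.66 with that of *Scgb1b27*, whereas the shares of *Scgb1b27* and *Scgb2b27* had one of 0.58. Shares of 1 total push each other down, so these values are a description only. In the 648 members with the lowest *Mucl2* share *Scgb1b27* took 17.6% and *Scgb2b27* 7.96% of the UMIs, and in the 647 with the highest 12.4% and 5.21%.

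To describe the genes beyond these products, levels are given as UMIs per 10000 outside the 10 largest transcripts, with *Muc19* and the *Klk1* family also left out, because *Muc19* and the kallikreins chose comparison groups. This scale is called the outside scale. All levels below are on it unless another is named, and they rested on 6662073 UMIs of the members. The 3' counts do not depend on transcript length in a known way, so levels are compared between cells and not between genes.

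The members were set beside 3 other groups of the same matrix. The *Dcpp*-rich acinar cells had at least 10000 UMIs and at least 30% *Dcpp1* to *Dcpp3* (408 cells, median 30692 UMIs). The *Muc19*-rich cells had at least 3000 UMIs, at least 10 of them and 0.1% from *Muc19*, the gel-forming mucin of mucous acini (96 cells, median 4925.5 UMIs). The kallikrein-rich cells had at least 3000 UMIs and at least 5% from *Klk1* and the *Klk1b* genes, which mark granular duct cells (698 cells, median 4534.5 UMIs). *Muc19*-rich cells were mixed: the median share of *Mucl2* in them was 7.93% and the upper quartile 32.6%. Differences from them were therefore also taken against the 45 with under 10% *Mucl2* and under 5% *Dcpp*. On the outside scale 1736 genes were at least 2-fold higher and 758 lower than in the 45, against 1286 and 654 for all 96. Levels and ratios below are of all 96 unless the 45 are named. The members and the *Dcpp*-rich cells were thus close in depth, and the other groups were shallower.

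Each log2 ratio of members to another group is given relative to the median of all genes tested (at least 50 UMIs in both groups together), which lay at 0.38 against *Dcpp*-rich, 0.10 against *Muc19*-rich and -0.28 against kallikrein-rich cells on the outside scale. Changing which transcripts set the total moves this median and, by construction, cannot move the ratios relative to it. Relative to it, 6.29% of 8728 genes were at least 2-fold higher and 6.02% at least 2-fold lower in the members than in the *Dcpp*-rich cells. Against *Muc19*-rich cells these were 13.9% and 9.79% of 8331 genes, and against kallikrein-rich cells 17.3% and 15.1% of 9441. Without this centring they were 13.9% and 3.37%, 15.4% and 7.85%, and 12.1% and 22.3%. The *Muc19*-rich cells held only 304880 UMIs on the outside scale, so genes near the limit of 50 rested on few UMIs there. With at least 200 UMIs, 463 genes were higher and 168 lower of 4075, uncentred, against 1286 and 654 of 8331 with 50. How much of the calls against *Muc19*-rich cells is counting error was not tested. Of the uncentred calls against *Dcpp*-rich cells 80.5% were higher in the members, but 33.1% per all UMIs, 47.4% outside the 10 largest of every group and 45.5% outside all listed secreted products and kallikreins. All counts of list genes below are relative to the median, in the order *Dcpp*-rich, *Muc19*-rich and kallikrein-rich. They are to be read beside the centred shares of all genes given above.

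**Figure D3:**
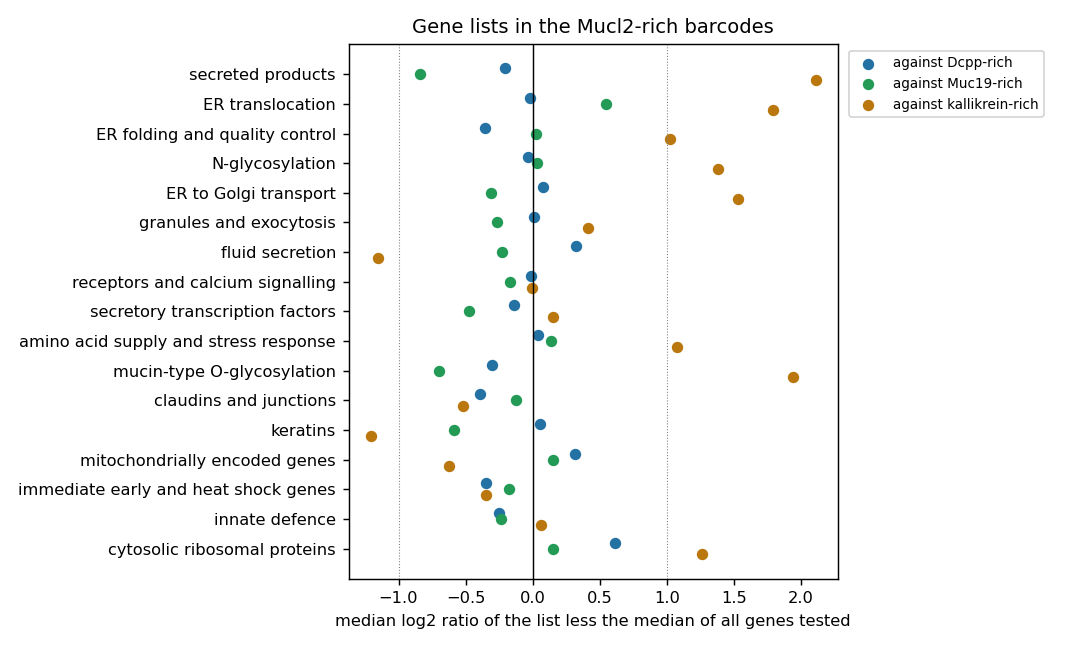
For each list of genes (vertical axis), points give the median log2 ratio of *Mucl2*-rich cells to each of the 3 other groups, less the median of all genes tested (horizontal axis, log2). Dotted lines mark 2-fold. Medians against *Dcpp*-rich cells lie between -0.39 and 0.61, and those against kallikrein-rich cells between -1.21 and 2.11.

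Genes of protein entry into the ER were mostly higher than in kallikrein-rich cells. Of the 23 tested genes of the translocon, signal peptidase and signal recognition particle, 0, 1 and 20 were at least 2-fold higher in the *Mucl2*-rich cells and none of them was 2-fold lower in any comparison. The list summed to 142 UMIs per 10000 in the members, 122 in *Dcpp*-rich, 96.3 in *Muc19*-rich and 39.6 in kallikrein-rich cells. *Sec61b*, a translocon subunit, was at 24.6 (95% interval 24.2 to 25) in the members, and its log2 ratio to kallikrein-rich cells was 2.73 (2.64 to 2.81). *Sec11c*, a catalytic subunit of signal peptidase, had a ratio of 3.20 (3.07 to 3.34) to them, and of -0.16 (-0.23 to -0.10) to *Dcpp*-rich cells. *Ssr4*, of the translocon-associated complex, was at 19.4 (95% interval 19 to 19.7).

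ER folding and quality control was less uniform. In the order given, 2 of 39, 3 of 40 and 20 of 40 genes were at least 2-fold higher, and 4, 5 and 0 were at least 2-fold lower. *P4hb*, a protein disulfide isomerase, was at 11.5 (95% interval 11.2 to 11.7), with log2 ratios of 0.84 (0.74 to 0.94), 0.64 (0.44 to 0.85) and 2.36 (2.25 to 2.48). *Derl3*, which helps to export misfolded proteins from the ER, was at 5.29 (95% interval 5.12 to 5.47) in the members and 0.754 (95% interval 0.478 to 1.13) in *Muc19*-rich cells, a ratio of 2.70 (2.12 to 3.36). *Ero1lb*, an ER oxidase, was higher than in all 3 groups, with ratios of 1.14 (0.82 to 1.49), 2.36 (1.31 to 3.68) and 2.85 (2.45 to 3.26). *Fkbp11*, a prolyl isomerase of secretory cells, was set apart mainly from duct cells, at 4.52 (4.24 to 4.82).

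*Dnajc10*, an ER disulfide reductase, went the other way. It was at 0.0916 (95% interval 0.0700 to 0.118) UMIs per 10000 in the *Mucl2*-rich cells, 0.792 (95% interval 0.669 to 0.93) in *Dcpp*-rich and 7.02 (95% interval 6.11 to 8.03) in *Muc19*-rich cells, with log2 ratios of -3.49 (-3.94 to -3.05) and -6.37 (-6.80 to -5.95). *Derl3* and *Dnajc10* thus lay on opposite sides between members and *Muc19*-rich cells.

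The ER stress response element is a known binding sequence of the unfolded protein response. It begins with a CCAAT box, goes on with 9 bases of any kind, and ends in the letters CCACG. The element was found on either strand in the 250 bases before 10 of the 36 folding genes with a RefSeq promoter. It was in 0.113% of all 32851 promoters and before none of the 17 ER translocation genes with a promoter. Listed genes counted with a match before any of their promoters, whereas the share of all is by promoter. These shares depend on sequence alone and are no result about these cells. The 10 folding genes were *Calr*, *Canx*, *Creld2*, *Derl3*, *Dnajc3*, *Ero1lb*, *Hsp90b1*, *Hspa5*, *Pdia6* and *Syvn1*, most of them named here only for this match. The windows of *Derl3* and *Ero1lb*, both over 2-fold higher than in *Muc19*-rich and kallikrein-rich cells, are shown with those of the chaperones *Hspa5* and *Calr*, each 60 bases along the gene strand with the element in capitals (chr10:75893221-75893280, plus; chr13:12565661-12565720, plus; chr2:34772004-34772063, plus; chr8:84847055-84847114, minus).
Derl3: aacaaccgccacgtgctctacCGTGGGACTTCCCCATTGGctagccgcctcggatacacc
Ero1lb: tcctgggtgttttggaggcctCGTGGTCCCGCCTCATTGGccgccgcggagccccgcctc
Hspa5: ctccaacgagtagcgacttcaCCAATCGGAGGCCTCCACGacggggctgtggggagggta
Calr: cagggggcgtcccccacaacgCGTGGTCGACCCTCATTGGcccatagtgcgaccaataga

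In *Hspa5* the element lay on the gene strand, and in *Derl3*, *Ero1lb* and *Calr* on the other. Without the centring, the 10 genes with the element had median log2 ratios of 0.14 to *Dcpp*-rich, 0.35 to *Muc19*-rich and 0.65 to kallikrein-rich cells, against -0.02, 0.09 and 0.95 for the 26 that had none, 25 of them tested against *Dcpp*-rich cells. The order of the 2 sets thus turned over between the comparisons. A match is a description of these letters and was not tested as a site.

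N-glycosylation and transport from ER to Golgi also set the members apart from kallikrein-rich cells. Of the N-glycosylation genes 15 of 22 were at least 2-fold higher than in kallikrein-rich cells, against 0 and 1 higher than in the other 2 groups, and 1, 2 and 0 were lower. *Krtcap2*, of the oligosaccharyltransferase, was at 10.6 (95% interval 10.3 to 10.8), with a ratio of 2.57 (2.45 to 2.70) to kallikrein-rich cells. For ER to Golgi transport 30 of 41 genes were higher than in kallikrein-rich cells, 1 and 1 were higher than in *Dcpp*-rich and *Muc19*-rich cells, and 7 of 41 were lower than in *Muc19*-rich cells. *Tmed3*, a cargo receptor of the early secretory pathway, was at 8.12 (95% interval 7.9 to 8.34), with ratios of 0.10 (0.01 to 0.20), -0.27 (-0.44 to -0.09) and 3.35 (3.17 to 3.54).

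*Sec23b* and *Lman1l* of that list were far lower than in *Muc19*-rich cells. *Sec23b*, a coat protein of ER exit vesicles, was at 1.000 (95% interval 0.925 to 1.08) in the members and 6.36 (95% interval 5.5 to 7.32) in *Muc19*-rich cells, a ratio of -2.78 (-3.01 to -2.54). *Lman1l*, a lectin related to the ER cargo receptor, was at 0.275 (95% interval 0.236 to 0.318) in the members, 10.4 (95% interval 9.32 to 11.6) in *Muc19*-rich cells and 0.0107 in *Dcpp*-rich cells, where it rested on 2 UMIs. The cargo adaptor *Mcfd2* was higher than in *Muc19*-rich cells instead, at 1.49 (0.99 to 2.03).

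Granule and exocytosis genes differed by gene. Relative to the median, 3 of 24, 1 of 25 and 7 of 26 were 2-fold higher and 2, 2 and 3 lower. The shares that were lower were near the 6.02%, 9.79% and 15.1% of all genes. *Rab27b* and *Rab26*, small GTPases of secretory granules, were at 1.95 (95% interval 1.84 to 2.05) and 0.542 (95% interval 0.487 to 0.601) UMIs per 10000. Their ratios to *Dcpp*-rich cells were 1.39 (1.10 to 1.69) and 1.08 (0.59 to 1.61). *Pam*, which amidates secreted peptides, was at 3.38 in the members, 0.508 in *Dcpp*-rich, 4.79 in *Muc19*-rich and 3.58 in kallikrein-rich cells, so the *Dcpp*-rich cells stood apart at a ratio of 2.36 (2.06 to 2.67). *Vamp8*, a granule membrane SNARE, was at 4.91 (95% interval 4.75 to 5.09) and within 2-fold in every comparison.

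The genes of fluid secretion separated the members from duct cells and, for some, from the other acinar cells. *Aqp5* was at 20.4 UMIs per 10000 in the members, 11.4 in *Dcpp*-rich, 17.8 in *Muc19*-rich and 0.265 in kallikrein-rich cells. Its log2 ratio was 6.55 (6.21 to 6.91) to kallikrein-rich cells and 0.09 (-0.03 to 0.22) to *Muc19*-rich cells. *Kcnn4*, a calcium-activated potassium channel, was at 9.24, 5.86, 3.31 and 0.115 in the same order. *Slc12a2*, the basolateral cotransporter that loads acinar cells with chloride, was at 16.9, 5.57, 7.28 and 16.5.

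*Slc12a2* was thus higher than in both other acinar groups, at 1.22 (1.13 to 1.32) and 1.11 (0.91 to 1.30), and about as high as in duct cells. *Ano1*, the calcium-activated chloride channel of the apical membrane, was at 0.949 (95% interval 0.876 to 1.03), with a ratio of 0.99 (0.63 to 1.37) to *Dcpp*-rich cells and 4.06 (3.39 to 4.82) to kallikrein-rich cells. *Atp1b1*, a beta subunit of the sodium pump, was lower than in kallikrein-rich cells, at -1.30 (-1.35 to -1.26), and so was the chloride channel *Cftr*, at 0.0345 against 0.88.

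*Kcne1*, a potassium channel subunit, was far lower than in the *Dcpp*-rich cells. It was at 0.0826 (95% interval 0.0622 to 0.107) in the members and 16.6 (95% interval 16 to 17.2) in the *Dcpp*-rich cells, a log2 ratio of -8.03 (-8.44 to -7.64). *Slc26a6*, an anion exchanger, was at 0.324 (95% interval 0.282 to 0.37) against 1.18 (95% interval 0.827 to 1.63) in *Muc19*-rich cells. Over the list, 1 of 18, 3 of 17 and 5 of 22 genes were higher and 5, 3 and 12 lower.

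**Figure D4:**
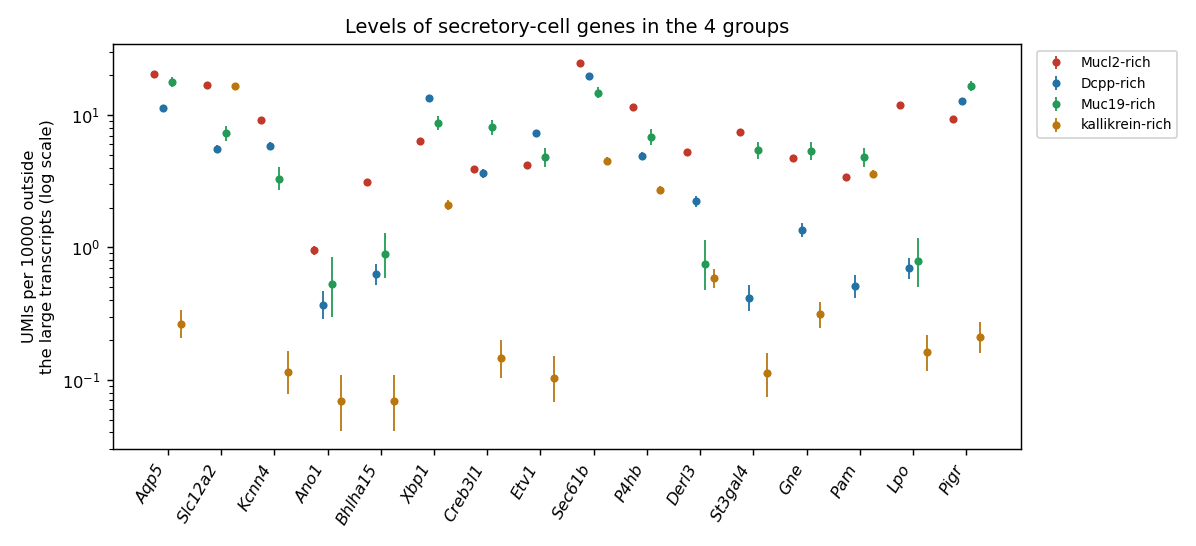
Levels of 16 genes in the 4 groups, in UMIs per 10000 outside the large transcripts on a log scale (vertical axis). Points are pooled levels and bars their exact Poisson 95% intervals for counting error, which are hidden by the point where they are short. *Aqp5*, *Kcnn4*, *Bhlha15*, *Lpo* and *Pigr* lie lowest in the kallikrein-rich cells, and *Xbp1* lies higher in the *Dcpp*-rich cells (13.4) than in the *Mucl2*-rich cells (6.36).

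Receptors and calcium signalling genes past 2-fold were more often lower than higher in counts against *Dcpp*-rich and kallikrein-rich cells. Of 24, 22 and 26 genes tested, 1, 2 and 2 were at least 2-fold higher and 4, 2 and 8 lower. *Adrb1*, the beta-1 adrenergic receptor, was at 0.522 (95% interval 0.469 to 0.58) in the members, 0.0695 (95% interval 0.037 to 0.119) in *Dcpp*-rich cells and 0.561 (95% interval 0.474 to 0.66) in kallikrein-rich cells, so that acinar cells of the 2 deep groups differed at a log2 ratio of 2.53 (1.74 to 3.46). *Adra1a*, an alpha-1 adrenergic receptor, was at 0.0435 (95% interval 0.0292 to 0.0625) in the members and 0.807 (95% interval 0.702 to 0.924) in kallikrein-rich cells. *Atp2a3*, a calcium pump of the ER, was at 6.86 (95% interval 6.67 to 7.07) and within 2-fold of every group. The purinergic receptor *P2rx4* was at 2.06 (95% interval 1.95 to 2.17) and higher than in kallikrein-rich cells, at 1.36 (1.16 to 1.56).

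Transcription factors of secretory cells differed gene by gene. *Bhlha15* was at 3.13 (95% interval 3.00 to 3.27) in the members, 0.626 (95% interval 0.518 to 0.75) in *Dcpp*-rich, 0.886 (95% interval 0.584 to 1.29) in *Muc19*-rich and 0.0692 (95% interval 0.041 to 0.109) in kallikrein-rich cells. The ratios were 1.95 (1.68 to 2.23), 1.72 (1.17 to 2.32) and 5.78 (5.12 to 6.54). *Xbp1*, the transcription factor of the unfolded protein response, was lower than in *Dcpp*-rich cells, at -1.45 (-1.52 to -1.38), and higher than in kallikrein-rich cells, at 1.90 (1.77 to 2.03). The factor of acinar identity *Sox10* was at 0.785 (95% interval 0.719 to 0.855), with a ratio of 2.15 (0.92 to 3.78) to *Muc19*-rich cells, and kallikrein-rich cells held 1 UMI of it.

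Several factors of mucous and secretory cells were lower than in *Muc19*-rich cells. These were *Spdef*, at -1.76 (-2.02 to -1.48), *Creb3l1*, at -1.15 (-1.34 to -0.95), and *Nupr1*, a stress-response factor, at -2.32 (-2.37 to -2.27). *Nupr1* was nonetheless at 29.3 (95% interval 28.9 to 29.7) UMIs per 10000 in the members. *Creb3l2*, a factor related to *Creb3l1*, was at 0.593 (95% interval 0.536 to 0.654), with a ratio of 1.07 (0.08 to 2.29) to *Muc19*-rich cells. *Elf5* and *Barx2*, epithelial factors, were also higher than there, at 2.29 (1.54 to 3.17) and 3.51 (2.15 to 5.39).

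*Etv1* was found in all 3 acinar groups, at 4.17, 7.27 and 4.82, against 0.104 in kallikrein-rich cells, whereas *Tfcp2l1*, a factor of ducts, was at 0.911 against 15. Over the list, 2, 9 and 13 of 35, 35 and 35 genes were higher and 6, 10 and 6 lower. The share higher than in *Dcpp*-rich cells was near the 6.29% of all genes. The share lower than in kallikrein-rich cells was near their 15.1%.

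Genes of amino acid supply past 2-fold were found mainly against kallikrein-rich cells. At least 2-fold higher were 1 of 28, 3 of 26 and 15 of 28, and 0, 1 and 1 were lower. The first 2 shares were near or below those of all genes. *Eif4ebp1*, a translation repressor, was at 5.64 (95% interval 5.46 to 5.82), with ratios of 0.83 (0.69 to 0.98) and 4.14 (3.86 to 4.44) to *Dcpp*-rich and kallikrein-rich cells. *Asns*, which makes asparagine, was at 4.46 (95% interval 4.3 to 4.62) with 3.30 (3.06 to 3.56), and *Pycr1*, of proline synthesis, had a ratio of 6.42 (5.37 to 7.73) to kallikrein-rich cells on 7 UMIs there.

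O-glycosylation, which builds mucin sugars, was divided. *St3gal4*, a sialyltransferase, was at 7.41 in the members, 0.417 in *Dcpp*-rich, 5.41 in *Muc19*-rich and 0.111 in kallikrein-rich cells. *Gne*, the enzyme that starts sialic acid synthesis, had ratios of 1.43 (1.25 to 1.62) and 4.22 (3.90 to 4.55) to *Dcpp*-rich and kallikrein-rich cells, and *B4galt1*, a galactosyltransferase, one of 3.31 (2.56 to 4.19) to *Dcpp*-rich cells. The relation was the reverse for *B3gnt6*, which makes core 3 structures, at 0.00751 in the members against 1.56 in *Dcpp*-rich and 3.05 in *Muc19*-rich cells. *Galnt12*, which adds the first sugar, was at 0.063 against 1.9 in *Muc19*-rich cells. Of the list, 5 of 19 genes were higher and 4 lower than in *Dcpp*-rich cells, and 0 higher and 8 lower of 19 against *Muc19*-rich cells. Against kallikrein-rich cells 12 of 17 were higher and 2 lower.

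Of 24 junction genes 0, 3 and 5 were at least 2-fold higher and 3, 2 and 6 lower. The shares higher than in *Muc19*-rich and kallikrein-rich cells were near the 13.9% and 17.3% of all genes. The share lower than in *Muc19*-rich cells was near their 9.79%. *Cldn10*, the claudin of acinar paracellular pores, was at 15.7 (95% interval 15.4 to 16) in the members and 0.269 (95% interval 0.21 to 0.34) in kallikrein-rich cells. *Gjb1* (connexin 32), a gap junction protein, had a ratio of 6.66 (5.44 to 8.29) to kallikrein-rich cells. *Cldn4* lay the other way at -3.36 (-3.54 to -3.18), and so did the keratins *Krt7*, at -3.61 (-3.80 to -3.43), *Krt8*, at -1.38 (-1.45 to -1.30), and *Krt18*, at -1.21 (-1.26 to -1.15), which form the filaments of simple epithelia. Of 7 keratins tested against kallikrein-rich cells 4 were lower, and of 6 against the acinar groups none passed 2-fold.

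Cytosolic ribosomal protein genes were the list furthest above the median against *Dcpp*-rich cells. They summed to 2059 UMIs per 10000 in the members, 1025 in *Dcpp*-rich, 1722 in *Muc19*-rich and 1018 in kallikrein-rich cells. Relative to the median of all genes, the list median was 0.61, 0.15 and 1.26 in the order given. Of 82 genes, 2, 0 and 67 were at least 2-fold higher and none was 2-fold lower. *Rpl41* was at 80.4 (95% interval 79.8 to 81.1) and *Rplp1* at 57.2 (95% interval 56.6 to 57.7).

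Stress and immediate early genes, which dissociation can induce, differed by gene. *Hspa1a* and *Hspa1b*, heat shock proteins of near-identical sequence whose reads may be divided uncertainly, were at 7.87 and 8.01 in the members against 1.57 and 1.59 in *Dcpp*-rich cells. *Fos* and *Jun* were lower than in those cells, at -1.42 (-1.47 to -1.38) and -1.26 (-1.31 to -1.21), and so was *Ier3*, at -3.26 (-3.34 to -3.18). Of 31 genes 4, 4 and 0 were higher and 11, 4 and 8 lower in the order given. Their part in the other differences was not tested. Mitochondrially encoded genes summed to 907 in the members, 525 in *Dcpp*-rich, 728 in *Muc19*-rich and 1611 in kallikrein-rich cells.

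Secreted and defence products differed by large ratios. Of the listed secreted products below the 10 largest, 6 of 18, 5 of 17 and 13 of 18 were at least 2-fold higher and 7, 6 and 2 lower. Of the innate defence genes 1 of 12, 2 of 12 and 3 of 14 were higher and 3, 4 and 4 lower. The innate defence shares that were higher were near the 6.29%, 13.9% and 17.3% of all genes. *Lpo* was at 12 (95% interval 11.7 to 12.2) UMIs per 10000, against 0.695, 0.787 and 0.161 in the other groups. *Wfdc12*, a whey acidic protein of the antiprotease family, ranked 8 among the members' transcripts at 329 and was detected in 99.8% of them. It was at 13.5 in *Dcpp*-rich and 3.78 in kallikrein-rich cells but at 544 in *Muc19*-rich cells.

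*A630073D07Rik*, of unknown function, was at 33.4 (95% interval 33 to 33.9) and in 94.3% of members, with ratios of 4.78 (4.57 to 5.01), 4.53 (4.09 to 5.01) and 6.40 (6.15 to 6.67). *Pigr*, the receptor that carries IgA into saliva, was at 9.33 (95% interval 9.1 to 9.57). Its ratios were -0.82 (-0.89 to -0.75), -0.94 (-1.07 to -0.80) and 5.75 (5.37 to 6.16). It was thus shared with the other acinar groups but lower than in both. *Esp8*, of a family of exocrine-gland secreted peptides, was at 1.74 (95% interval 1.65 to 1.85) against 0.0214 in *Dcpp*-rich cells, where it rested on 4 UMIs.

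Products that the *Dcpp*-rich cells made in quantity were low in the members. *Bpifa2*, a secreted antimicrobial protein of salivary glands, was at 8.26 (95% interval 8.04 to 8.48) in the members and 1663 (95% interval 1657 to 1669) in *Dcpp*-rich cells. *Pglyrp1*, a peptidoglycan recognition protein, had a ratio of -8.40 (-8.54 to -8.25) to them, and *Mup4*, a major urinary protein, one of -8.32 (-8.57 to -8.09). Many *Mup* genes are near-identical copies. How far this holds for *Mup4*, or for *Mup5* named below, was not checked, so how the counting divided reads among them is uncertain. *A2ml1*, a protease inhibitor, was at 0.901 (95% interval 0.83 to 0.976) against 505 (95% interval 497 to 513) in *Muc19*-rich cells. *Crisp3*, a cysteine-rich secretory protein, and *Egf*, a growth factor that duct cells secrete, were at -4.75 (-4.82 to -4.69) and -2.81 (-2.93 to -2.68) against kallikrein-rich cells.

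RNA of other cell types was present in part of the members. At least 5 UMIs of the 17 immune markers occurred in 126 members, of the basal and myoepithelial markers in 17, of endothelial markers in 17 and of fibroblast and mural markers in 13. The summed levels were 6.98, 0.971, 0.516 and 0.677 per 10000. Of the 18 ductal markers, kallikreins included, *Ren1* was at 0 in all members and the median member held 8 UMIs. Of the 8 mucous acinar markers *Ttc9* and *Gcnt3* were at 0 and the median was 2 UMIs. The 8 include *Creb3l1* and *Spdef*, described above as factors of mucous and secretory cells, so these UMIs need not come from other cells. *Creb3l1* alone had a median of 1 UMI per member. Kallikreins reached 50 UMIs in 86 members and *Smgc*, a submandibular secreted mucin-like gene, 20 UMIs in 37, while 4 members held 50 UMIs of *Bpifa2* and 8 held 5 of *Muc19*. In all, 283 members (14.6%, 13.0 to 16.2) met one of these 8 limits. No doublet was removed, and whether these are doublets, free RNA or mixed cells cannot be told apart. Free RNA was estimated at 296 UMIs per cell from the immune cells.

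With those 283 left out, counts of genes past 2-fold stayed within 1.5 times. *Smgc*, itself used for a limit that left members out, moved from a ratio of 1.62 to -1.54 against *Dcpp*-rich cells. The 10% of members with most *Smgc* held 93.5% of its UMIs. Against the 45 *Muc19*-rich cells with little *Mucl2* and *Dcpp*, *Bpifa2* moved from -1.73 to 2.00.

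Variation among the members was measured for the more abundant genes only. When UMIs outside the 10 largest were thinned to 1000 per cell (1870 members, 72 with fewer left out), the Fano factor, the variance over the mean, had a median of 1.05 over 697 genes with a mean of at least 0.2 UMIs. A factor near 1 is what counting alone gives, and at the low means of most of these genes it moves little even where levels vary. It was at least 2 for 32 genes. The 10 highest were *Smgc*, *Klk1*, *Mup5*, *Bpifa2*, *Wfdc12*, *Wfdc18*, *2310057J18Rik*, *Cd74*, *Klk1b26* and *Apoe*, among which *Klk1* and *Klk1b26* are kallikreins and *Cd74* and *Apoe* are high in macrophages.

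**Figure D5:**
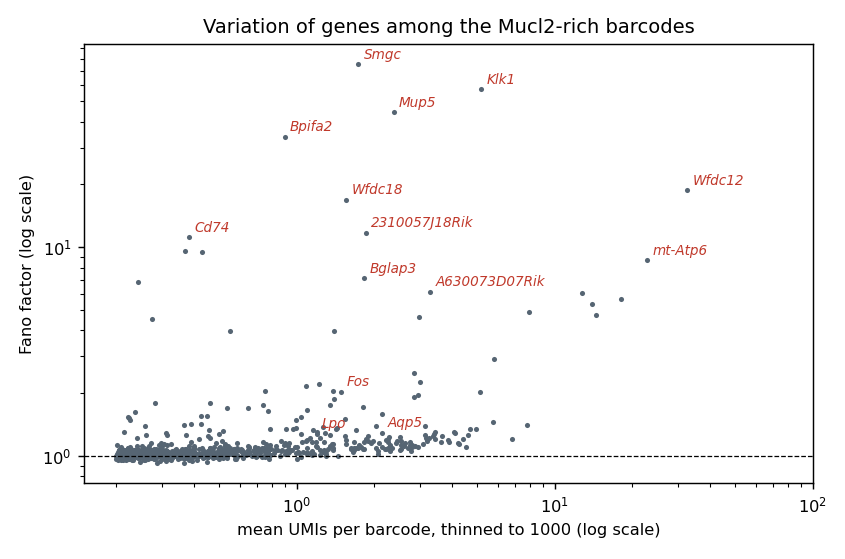
Each point is a gene, with its mean UMIs per *Mucl2*-rich cell after thinning to 1000 UMIs (horizontal axis, log scale) and its Fano factor over 1870 cells (vertical axis, log scale). The dashed line marks a factor of 1. Most of the 697 genes lie near it, while *Smgc* (75.6), *Klk1* (57.2) and *Mup5* (44.4) stand far above.

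*Mup5* and *2310057J18Rik* of these, and *Bglap3*, were described further. *Mup5*, a major urinary protein, had at least 1 UMI in 809 members and at least 10 in 258, while 1133 had none, with a highest count of 1418. *2310057J18Rik*, of unknown function, had at least 10 UMIs in 330 members and none in 1071. *Bglap3*, of the osteocalcin family and named after its values were seen, had at least 10 in 341 and none in 818. *Bglap3* has near-identical copies, so its counts are uncertain. On the outside scale *Mup5* was at 1.16 and *2310057J18Rik* at 0.449 in *Dcpp*-rich cells, but *Bglap3* at 49.4.

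These subsets overlapped in part. At least 10 UMIs of both *Mup5* and *2310057J18Rik* were found in 86 members, or 33.3% of the first and 26.1% of the second, whereas 13.3% and 17.0% of all members reached 10 UMIs. Of the members with 10 *Bglap3* UMIs, 49 also had 10 of *Mup5*, or 14.4%, and 78 had 10 of *2310057J18Rik*, or 22.9%, so the first share was close to that of all members. The limit of 10 UMIs went with depth, since members with 10 *Bglap3* UMIs had a median of 41660 total UMIs and those at 0 had 29682. No gene of the 3 reached 10 UMIs in 1205 members and all 3 did in 21. Members with at least 10 *Mup5* UMIs had a median of 38592 total UMIs and those at 0 had 32314. Setting *Mup5*-high members against those at 0, 2 of 3018 genes were at least 2-fold higher and 5 at least 2-fold lower, and the other genes lay within 2-fold.

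Depth went with some of the levels. In 3 sets of 648, 647 and 647 members in order of total UMIs the median mitochondrial share was 1.30%, 0.789% and 0.637%, and the 10 largest transcripts took 87.7%, 89.3% and 91.5%. Per 10000 UMIs outside the 10 largest alone, ER translocation genes summed to 118, 137 and 153, N-glycosylation genes to 48.7, 53.6 and 57.8, and ribosomal protein genes to 1823, 2059 and 2127. *A630073D07Rik* was at 22.6, 29.9 and 40.1. Receptors and calcium signalling summed to 36.4, 36.4 and 36.3, and fluid secretion to 83.4, 75.8 and 73.7. Some RNA of other cell types fell with depth, with ductal markers, kallikreins included, at 118, 63.9 and 38.6 and immune markers at 9.54, 9.02 and 4.29. Endothelial and fibroblast and mural markers fell too. Mucous acinar markers did not fall steadily, at 7.58, 6.30 and 7.30, nor did basal and myoepithelial markers, at 0.903, 1.11 and 0.881. Of the mucous markers *Creb3l1* alone was at 3.99, 3.90 and 3.84, so that list does not measure RNA of other cells only. *Smgc* was highest in the middle set, and erythroid markers were highest in the deepest. Depth, cell size and free RNA cannot be told apart here.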

How the data were processed

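The authors deposited 1 matrix of raw UMI counts, not normalized, from 10x Genomics 3' scRNA-seq. The submitters' processing notes name Cell Ranger 6.0.1, Seurat 4.1.1 and mm10. The samples' labels name 2 mice and the study's methods 3. All 15707 barcodes were kept and no barcode was called a doublet or corrected. Members, gene lists and motifs were chosen with earlier results of these data known. Levels are summed counts per 10000 UMIs with exact Poisson intervals, ratios have exact conditional intervals, and shares exact Clopper-Pearson intervals, all at 95%. Named genes were the 10 largest transcripts, and per list the 4 highest and, per comparison, the 2 highest and 2 lowest ratios past 2-fold, the 10 highest and 10 lowest ratios, per comparison, of all genes with at least 200 UMIs, the 10 highest Fano factors, the 5 markers and 6 transcription factors. *Bglap3* and, of the genes with an ER stress response element, all but *Derl3*, *Ero1lb* and *Syvn1* fell outside this rule and were named after their values were seen. Positions are from GENCODE on GRCm38 (100 of 100 genes found) and promoters from RefSeq GRCm38.p6. The work was done in Python 3.11.15 (numpy 2.4.6 for sums, scipy 1.17.1 for intervals), and the ratio and interval steps were tested on simulated data.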

Additional observations from a re-analysis of the deposited data

How the results depend on the processing

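The number of members ran from 1442 to 2698 over the limits tried. The share of the 10 largest transcripts was 89.9% and 90.5% with a minimum of 5000 and 20000 UMIs, 90.1% and 90.9% with *Mucl2* of at least 20% and 50%, 90.2% and 90.1% with *Dcpp* under 2% and 10%, 89.8% without the tenth of cells with most UMIs, 90.7% for the members' own 10 largest, and 90.9% without the members that carried RNA of other cell types. Genes at least 2-fold higher and lower, uncentred, were 386 and 780 (*Dcpp*-rich), 219 and 7663 (*Muc19*-rich) and 147 and 8996 (kallikrein-rich) per all UMIs. Against *Dcpp*-rich cells they were 513 and 569 outside the 10 largest of every group and 493 and 590 outside all listed secreted products. With at least 200 UMIs they were 550 and 113, 463 and 168, and 941 lower than in kallikrein-rich cells, and with no minimum 4557 and 1636, 5953 and 2287, and 3426 and 4894. Genes tested against *Dcpp*-rich cells were 4580 with at least 200 UMIs and 16134 with no minimum, against 8728 in the main setting. The counts past 2-fold did not change in proportion to the genes tested. Thinned to 500 UMIs, 20 genes had a Fano factor of at least 2.

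Of 2361 recomputed ratios of the named genes past 2-fold, 2358 kept their direction and 2331 stayed past 2-fold. Part of this was fixed in advance. Settings that change only which transcripts set the total cannot change a ratio relative to the median. Settings that change only the UMI minimum of a gene can shift it only through that median. The exceptions in direction were *Smgc*, at -1.54 against *Dcpp*-rich and -0.94 against kallikrein-rich cells without the members that carried RNA of other cell types, and *Bpifa2*, at 2.00 against the 45 *Muc19*-rich cells with little *Mucl2* and *Dcpp*. These 2 alternatives were chosen after seeing the data. The first left out members by their *Smgc* UMIs, among other limits. The second left out *Muc19*-rich cells by their share of *Dcpp*, and *Bpifa2* was high in the *Dcpp*-rich cells. The changes of direction are thus not independent of the limits and are no result about these genes. Of 17 lists, the median against *Dcpp*-rich cells lay above that of all genes for 7, and for 5 to 9 under the alternatives. No paired analysis was possible because the cells carry no sample or replicate number. The pooled matrix gives no spread between mice, and the *Muc19*-rich group rests on 96 cells, so ratios to it have the widest intervals.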
